A study of Mus with 21 samples.

Results

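The genes described are the 10 rows of the deposited counts table named *Smc1a*, *Smc3*, *Rad21*, *Stag1*, *Stag2*, *Esco1*, *Esco2*, *Hdac8*, *Cdca5* and *Ctcf*, which encode the cohesin ring, the enzymes that acetylate and deacetylate it, sororin and the insulator protein CTCF. The table lists 55335 genes, 30552 of these had enough counts to be tested, and all 10 of the named genes were among them. The study asked whether loss of a copy of *Wapl*, which encodes the cohesin release factor, alters gene expression in mice that are heterozygous for the cohesin loader NIPBL. Poly(A) RNA was sequenced from the whole brains of 21 female embryos at E17.5 on a C57BL/6J background. WT embryos (n = 5) carried intact copies of both genes. *Nipbl*+/- embryos (n = 3, genotype *Wapl* +/+; *Nipbl* +/delta) had a *Nipbl* deletion that Stra8-icre makes in the germ cells of the sire, so that every cell of the embryo carries it. *Wapl* Δ/+ embryos (n = 7) had a deletion of the *Wapl* promoter and first exons on 1 chromosome, derived earlier with an E2a-Cre transgene, and double heterozygotes (n = 6) carried both deletions. The labels write the *Wapl* genotype as delta/+ for 2 of the *Wapl* Δ/+ embryos and 4 of the double heterozygotes and as +/delta for 5 and 2, and both forms are kept in 1 group here. The paper describes 2 crosses, in which the *Wapl* deletion came from the dam or from the sire. The labels do not name the cross or say whether the order of the alleles marks it. No group here lost both copies of either gene, and litters are not given in the labels.

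Cohesin is a ring that holds sister chromatids together from replication to mitosis and that extrudes loops of chromatin in the rest of the cycle and in cells that no longer divide. SMC1A and SMC3 form the arms of the ring, RAD21 closes it, and STAG1 or STAG2 binds to RAD21, so that each complex contains either STAG1 or STAG2. ESCO1 and ESCO2 acetylate SMC3, sororin (the product of *Cdca5*) then protects the acetylated ring from WAPL, HDAC8 removes the acetyl mark so that the protein can be used again, and CTCF halts moving cohesin at its binding sites. Mutations of SMC1A, SMC3, RAD21 and HDAC8 cause forms of Cornelia de Lange syndrome, the disorder best known from NIPBL.

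Total counts on genes ranged from 25682566 to 35818767 per library (median 31830396). *Nipbl* normalized counts lay between 1104 and 1287 in the *Nipbl*+/- libraries and between 1135 and 1244 in the double heterozygotes, and did not fall below 1956 in the other groups. *Wapl* normalized counts lay between 590 and 755 in the *Wapl* Δ/+ libraries and between 704 and 774 in the double heterozygotes, and did not fall below 1320 elsewhere, so every library matched its label. Neuronal markers were abundant, with 49589 to 74760 counts of *Tubb3* (a neuronal tubulin) per library. Counts of the mitochondrial gene *mt-Nd3* divide the libraries into a high set of 9 (52 to 106 counts) and a low set of 12 (0 to 6 counts). All *Nipbl*+/- libraries belong to the low set, which also holds 3 of 5 WT, 2 of 7 *Wapl* Δ/+ and 4 of 6 double-heterozygote libraries. The sets coincide with the way the labels write the *Wapl* deletion: every library with a *Wapl* deletion written delta/+ is low and every one written +/delta is high, so that label order and *mt-Nd3* set cannot be told apart in the *Wapl* Δ/+ and double-heterozygote groups. A lower count of a gene in whole brain can come from fewer cells that express it or from less RNA per cell, and these cannot be told apart here.

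Few of the 10 genes passed the test in these brains. A gene was called when its Benjamini-Hochberg adjusted P over all genes tested, from edgeR's quasi-likelihood test, was below 0.10. Against WT, 1 of the 10 was called in *Nipbl*+/- brains (*Stag2*, lower), 0 of 10 in *Wapl* Δ/+ brains and 1 of 10 in double heterozygotes (*Stag1*, higher). Of all genes tested, 11.2% were called in *Nipbl*+/- brains, 2.22% in *Wapl* Δ/+ brains and 3.28% in double heterozygotes, so the counts of 1 and 0 of 10 lie near those shares. The median of the absolute log2 fold changes over the 10 genes was 0.06 in *Nipbl*+/- brains, 0.03 in *Wapl* Δ/+ brains and 0.09 in double heterozygotes, against 0.16, 0.12 and 0.12 over all genes tested, which include genes with few counts and wide errors. With their signs, all 10 were above WT in double heterozygotes (median 0.09, against 0.0007 over all genes), 8 of 10 in *Nipbl*+/- and 5 of 10 in *Wapl* Δ/+ brains. The count of 0 in *Wapl* Δ/+ brains came from edgeR. In that comparison 2 of the 10 genes (*Stag1* and *Cdca5*) had an unadjusted edgeR P below 0.05, as had 15.6% of all genes tested, and DESeq2 called 1 of the 10 (*Stag1*), as it called 4.73% of all genes. All comparisons against WT share the same 5 WT libraries and are not independent of each other.

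**Figure D1:**
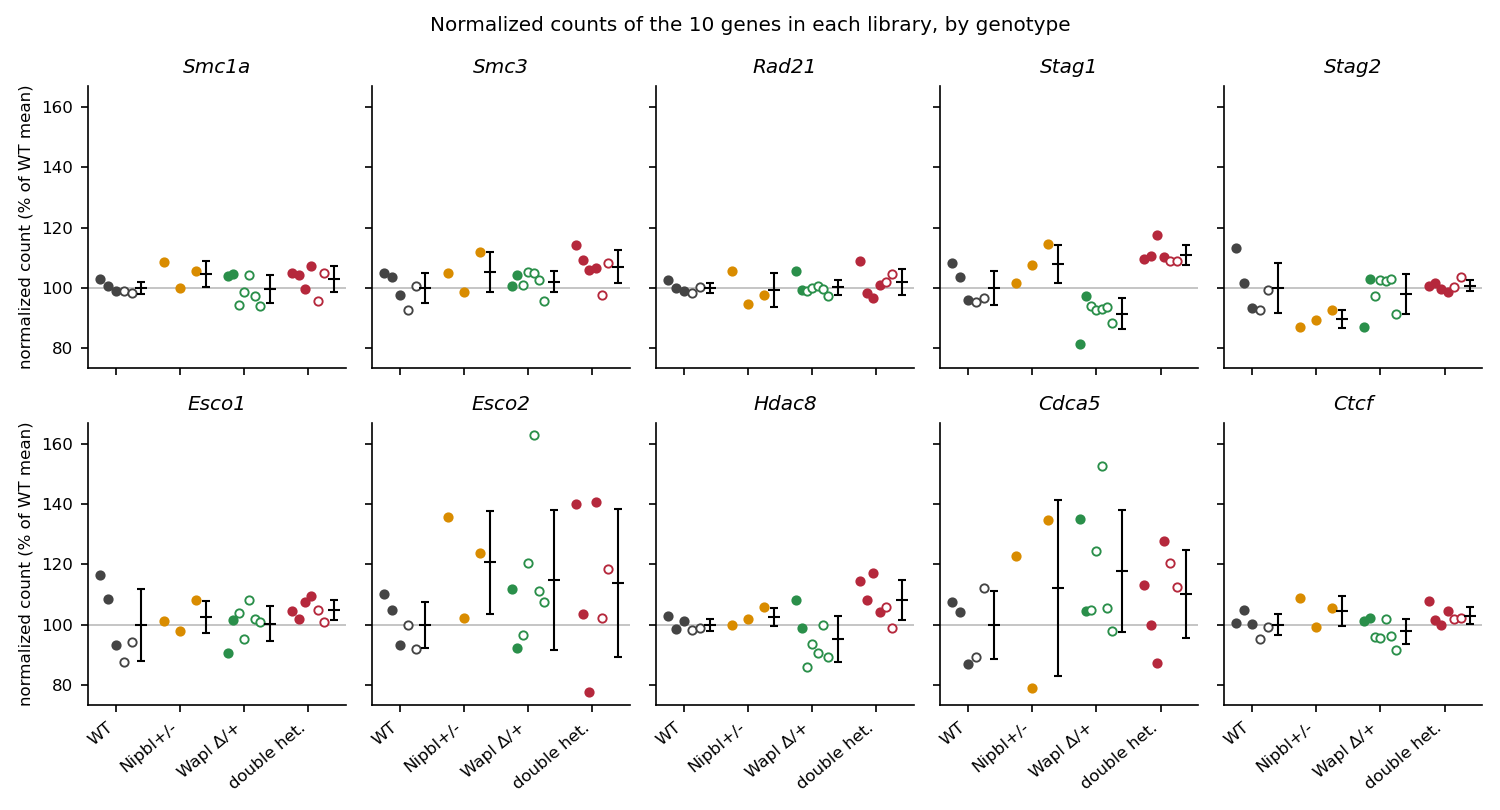
Normalized counts of the 10 genes in each of the 21 libraries, as a percentage of the WT mean (vertical axis), by genotype (horizontal axis). Filled points are libraries with low *mt-Nd3* and open points those with high *mt-Nd3*, and the black bar beside each group is the mean with its SD. Most points sit within 20% of the WT mean except for *Esco2* and *Cdca5*, whose libraries spread widely in every mutant group, and the *Stag1* points of the double heterozygotes lie above all *Stag1* points of the *Wapl* Δ/+ group.

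Of the ring subunits, *Rad21* and *Smc1a* varied least of all 10 genes over the libraries. *Smc1a*, which encodes an arm of the ring and lies on the X chromosome (GRCm38 X:152016428-152061973), had a normalized count of 4135 ± 79.4 (SD, n = 5) in WT brains, 4328 ± 183 (n = 3) in *Nipbl*+/- brains, 4119 ± 191 (n = 7) in *Wapl* Δ/+ brains and 4254 ± 179 (n = 6) in double heterozygotes. Its groups overlapped in every comparison, and its log2 fold changes against WT were 0.06 (SE 0.0363), -0.0019 (SE 0.0334) and 0.05 (SE 0.0351) in that order of mutants. The *Wapl* Δ/+ value was 0.051 within the low and -0.013 within the high *mt-Nd3* set. *Rad21*, the kleisin that closes the ring (15:51962604-51993538), had normalized counts of 6019 ± 98.2, 5982 ± 339, 6034 ± 152 and 6136 ± 264 (SD) in WT, *Nipbl*+/-, *Wapl* Δ/+ and double-heterozygote brains, with log2 fold changes of -0.02, 0.0074 and 0.04. Over the 21 libraries the coefficient of variation of *Rad21* was 3.35%, the lowest of the 10 genes, followed by 4.15% for *Smc1a*, 4.29% for *Ctcf* and 5.10% for *Smc3*. None of these differences passed the test (edgeR adjusted P between 0.399 and 0.987).

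*Smc3*, the other arm of the ring and the subunit that ESCO1 and ESCO2 acetylate (19:53600396-53645831), stood highest in the double heterozygotes. Its normalized counts in WT replicates 1 to 5 were 3306, 3267, 3085, 2928 and 3175. In the double heterozygotes they ran from 3080 to 3603 with a median of 3391, so that 5 of 6 lay above the WT mean and the groups overlapped. The log2 fold change was 0.11 (95% confidence interval 0.02 to 0.19, edgeR adjusted P = 0.225), which did not pass the threshold, and it was 0.07 (SE 0.0457) in *Nipbl*+/- brains and 0.03 (SE 0.0341) in *Wapl* Δ/+ brains. Without double-heterozygote replicate 5, the lowest of its group, the difference was 0.13 and was called (edgeR adjusted P = 0.0376). Leaving out that library raised the calls over all genes from 1001 to 2504.

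*Ctcf*, whose product stops cohesin at the borders of chromatin loops (8:105636474-105682922), had normalized counts of 3585 ± 123 (SD, n = 5) in WT, 3747 ± 178 (n = 3) in *Nipbl*+/-, 3506 ± 147 (n = 7) in *Wapl* Δ/+ and 3691 ± 101 (n = 6) in double-heterozygote brains. Its log2 fold changes against WT were 0.06 (SE 0.0405), -0.03 (SE 0.0344) and 0.05 (SE 0.0356), with edgeR adjusted P of 0.482, 0.752 and 0.574. Within the low and high *mt-Nd3* sets the *Wapl* Δ/+ value was 0.0015 and -0.015. For *Smc1a*, *Smc3*, *Rad21* and *Ctcf* together, the 95% confidence intervals of the change ran from -6.32% to 12% in *Nipbl*+/- brains, from -6.72% to 7.53% in *Wapl* Δ/+ brains and from -2.69% to 14.4% in double heterozygotes. The intervals bound the changes that these numbers of embryos leave room for, and do not show that the levels were equal.

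Balance between ring subunits was also compared within each library, where the scaling of the library does not enter. The ratio of *Smc1a* to *Smc3* counts ran from 1.27 to 1.40 in WT, from 1.24 to 1.36 in *Nipbl*+/-, from 1.22 to 1.36 in *Wapl* Δ/+ and from 1.21 to 1.32 in double-heterozygote libraries, all of which overlap. The ratio of *Rad21* to *Smc3* counts ran from 1.84 to 2.02 in WT, 1.67 to 1.92 in *Nipbl*+/-, 1.81 to 2.0 in *Wapl* Δ/+ and 1.71 to 1.99 in double-heterozygote libraries. These ratios hold a factor for gene length and are not ratios of molecules. None of these 6 comparisons with WT passed a two-sided exact permutation test after adjustment over the 12 ratio tests made (lowest exact P = 0.0758, adjusted P = 0.182, for *Smc1a* to *Smc3* in double heterozygotes). In double heterozygotes the log2 ratio of *Smc1a* to *Smc3* differed by -0.06 with all libraries and was called without replicate 4 (-0.071, exact permutation test, adjusted P = 0.0952), and that of *Rad21* to *Smc3* differed by -0.07 and was called without replicate 5 (-0.098, exact permutation test, adjusted P = 0.0536).

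**Figure D2:**
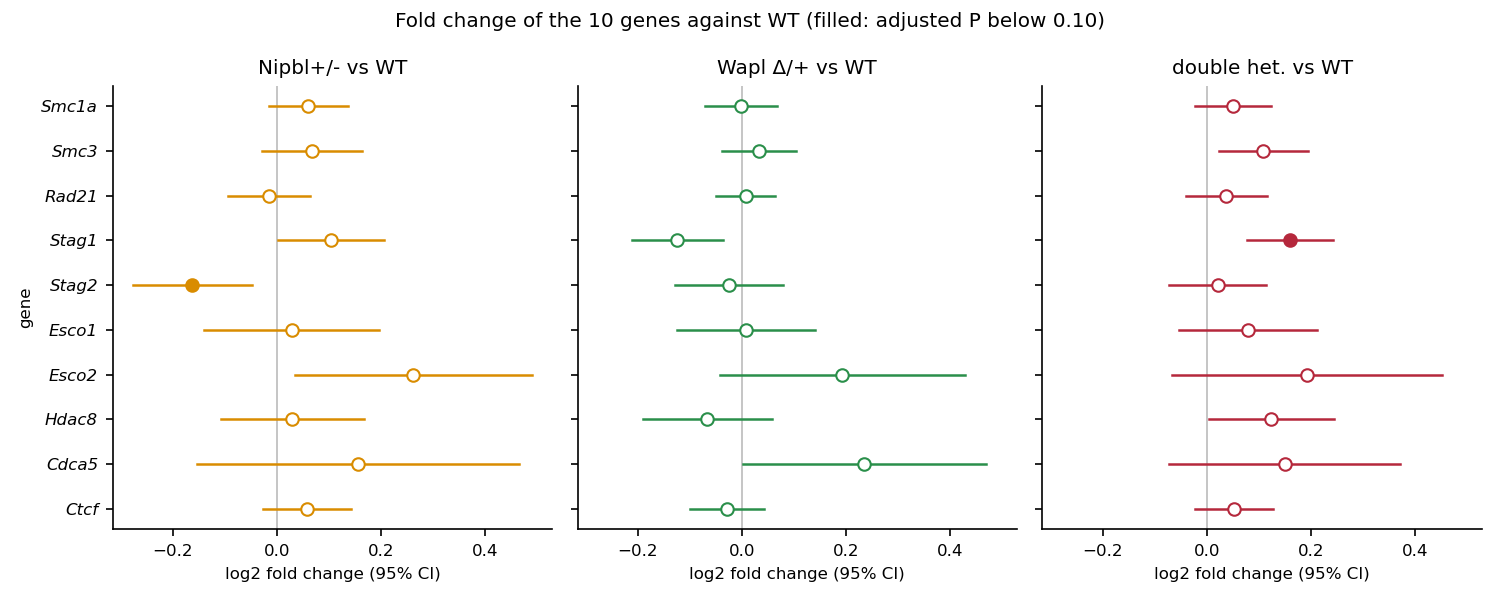
Log2 fold change of each of the 10 genes against WT (horizontal axis) with its 95% confidence interval from edgeR, for each mutant group. Filled points passed the threshold: *Stag2* in *Nipbl*+/- brains at -0.16 and *Stag1* in double heterozygotes at 0.16, while *Esco2* and *Cdca5* have the widest intervals.

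*Stag1* and *Stag2*, which encode the alternative stromalin subunits, carried the changes that passed the test. *Stag1* lies on chromosome 9 (9:100597709-100958544) and *Stag2* on the X chromosome (X:42149297-42277186). *Stag1* normalized counts in WT replicates 1 to 5 were 2314, 2217, 2055, 2041 and 2068. The *Nipbl*+/- libraries had 2178, 2303 and 2448, the *Wapl* Δ/+ libraries ran from 1742 to 2082 (median 1988), and the double heterozygotes ran from 2329 to 2513 (median 2352). All double heterozygotes thus lay above all WT and all *Wapl* Δ/+ libraries, while the *Nipbl*+/- and *Wapl* Δ/+ groups each overlapped WT. Overlap was not counted over all genes, so here and below the share of all genes without overlap is not known. Ordered by their means, the groups run from *Wapl* Δ/+ (91.5% of the WT mean) through WT and *Nipbl*+/- (108%) to the double heterozygotes (111%), and no neighbours in that order differed by edgeR's test (adjusted P = 0.156, 0.236 and 0.972).

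Against WT, *Stag1* was higher in double heterozygotes by 0.16 on the log2 scale (SE 0.0394, edgeR adjusted P = 0.0422, 6 of 6 libraries above the WT mean), an increase of 11.8% with a 95% confidence interval from 5.55% to 18.3%. The difference was 0.14 among the low *mt-Nd3* libraries and 0.20 among the high ones, and with these smaller groups it was not called in either set (adjusted P = 0.203 and 0.814). It was also not called without WT replicate 3, 4 or 5 (0.14 to 0.15, edgeR adjusted P of up to 0.152). Apart from single libraries left out, 8 of 12 alternative settings kept the call, among them DESeq2 (0.16, adjusted P = 0.00404). In *Wapl* Δ/+ brains *Stag1* stood at -0.12 (SE 0.0418, adjusted P = 0.156, 7 of 7 libraries below the WT mean) and in *Nipbl*+/- brains at 0.10 (SE 0.0485, adjusted P = 0.236, 3 of 3 libraries above it). DESeq2 called the value in *Wapl* Δ/+ brains (-0.13, adjusted P = 0.0812), and edgeR called it without *Wapl* Δ/+ replicate 2 (-0.14, adjusted P = 0.0844). Without that library edgeR called 1534 of all genes, against 677 with it. The value in *Nipbl*+/- brains was called without WT replicate 1 (0.14, edgeR adjusted P = 0.0952), where *Stag2* was not, and it was 0.067 within the low *mt-Nd3* set. Within the *mt-Nd3* sets the *Wapl* Δ/+ difference was -0.20 (low) and -0.06 (high).

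*Stag2* normalized counts in WT replicates 1 to 5 were 2439, 2185, 2009, 1992 and 2134, and those of the *Nipbl*+/- libraries were 1871, 1924 and 1998. The *Wapl* Δ/+ libraries ran from 1871 to 2217 (median 2200) and the double heterozygotes from 2126 to 2233 (median 2161). WT replicate 1 stood highest of all libraries, and the highest *Nipbl*+/- library reached just above the lowest WT library. In *Nipbl*+/- brains *Stag2* was lower than in WT, with a log2 fold change of -0.16 (SE 0.0545, edgeR adjusted P = 0.081), a fall to 89.7% ± 2.98 (SD, n = 3) of the WT mean with 3 of 3 libraries below it. It stood at -0.02 in *Wapl* Δ/+ brains (adjusted P = 0.867) and at 0.02 in double heterozygotes (adjusted P = 0.895).

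The *Stag2* call in *Nipbl*+/- brains lies close to the threshold. Apart from single libraries left out, 6 of 9 alternative settings kept it, among them DESeq2 (-0.15, adjusted P = 0.0679). Among the low *mt-Nd3* libraries alone, 3 against 3, the difference was -0.20 and still called (adjusted P = 0.0952), but leaving out WT replicate 1, 2 or 5 or any *Nipbl*+/- replicate raised the adjusted P to between 0.106 and 0.276, with differences from -0.11 (without WT replicate 1) to -0.18. In a single fit of all 4 groups it was -0.13 (adjusted P = 0.205).

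Put together within each library, *Stag1* and *Stag2* separated the libraries with a *Nipbl* deletion from those without it, which neither gene did alone. How many of all genes or gene pairs would separate these libraries in the same way was not counted. The double heterozygotes and the *Nipbl*+/- libraries overlapped in the ratio, but not in their *Stag2* counts. The ratio of *Stag1* to *Stag2* counts was 0.949, 1.02, 1.02, 1.02 and 0.969 in WT replicates 1 to 5 and 1.16, 1.2 and 1.22 in the *Nipbl*+/- libraries. It ran from 0.899 to 0.964 (median 0.931) in the *Wapl* Δ/+ libraries and from 1.04 to 1.17 (median 1.08) in the double heterozygotes. Every library with a *Nipbl* deletion lay above every library without it, in *Wapl* Δ/+ brains the ratio was lower than the WT mean in 7 of 7 libraries with some overlap, and the double heterozygotes lay between the WT and the *Nipbl*+/- means. On the log2 scale the mean ratio differed from WT by 0.26 in *Nipbl*+/- brains, -0.10 in *Wapl* Δ/+ brains and 0.14 in double heterozygotes. Two-sided exact permutation tests gave P = 0.0179, 0.00758 and 0.00433, and adjusted P = 0.0714, 0.0455 and 0.0455 over the 12 ratio tests, where 0.0179 is the smallest P that 3 against 5 libraries can give. The *Nipbl*+/- difference was not called when medians were compared with all libraries kept (0.238, exact permutation test, adjusted P = 0.257). It was 0.25 to 0.28 with any library left out but was not called without WT replicate 1, 2, 3 or 5 or without any *Nipbl*+/- replicate (exact permutation test, adjusted P of up to 0.19), and the *Wapl* Δ/+ difference (-0.12 to -0.09) was not called without WT replicate 2 or 3 (adjusted P = 0.109 by the same exact permutation test).

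Within the low *mt-Nd3* libraries the ratio of *Stag1* to *Stag2* ran from 0.949 to 1.02 in WT, 1.16 to 1.22 in *Nipbl*+/-, 0.931 to 0.941 in *Wapl* Δ/+ and 1.08 to 1.17 in double-heterozygote brains. Among the high *mt-Nd3* libraries it ran from 0.969 to 1.02 in WT, 0.899 to 0.964 in *Wapl* Δ/+ and 1.04 to 1.08 in double-heterozygote brains. No mutant group overlapped WT within either set, and none of these differences was called after adjustment, where the smallest exact permutation P that the sets allow is 0.0286 to 0.333. Compared with each other in tests chosen after seeing the data, the double heterozygotes lay above the *Wapl* Δ/+ libraries by 0.24 on the log2 scale (exact permutation P = 5.83e-04, adjusted over 3 tests 0.00175) and below the *Nipbl*+/- libraries by 0.13 (difference -0.13, adjusted P = 0.0238 by the same exact permutation test, with overlap). The *Nipbl*+/- libraries lay above the *Wapl* Δ/+ libraries by 0.36 (adjusted exact permutation P = 0.0125). The difference of the double heterozygotes from WT, 0.14, was close to the sum of the differences of the single heterozygotes, 0.16, leaving -0.03 with an SE of 0.0442 from the spread within groups.

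**Figure D3:**
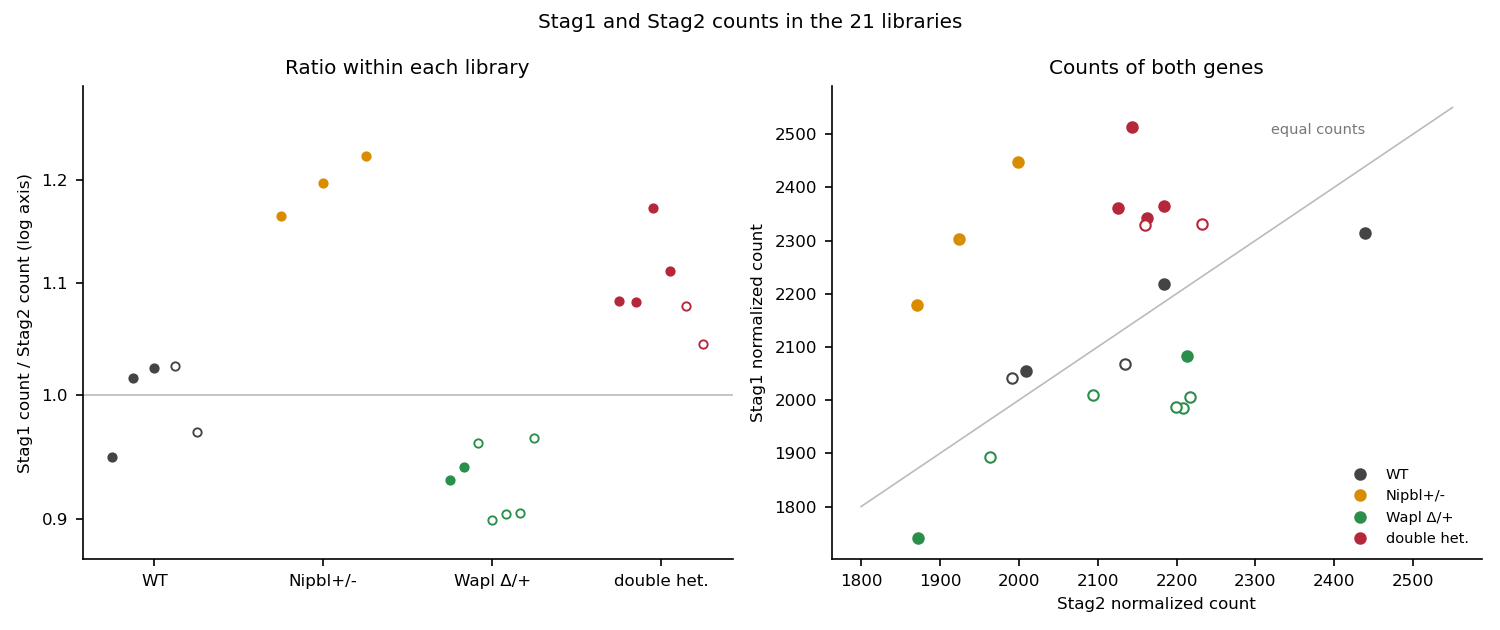
Left, the ratio of *Stag1* to *Stag2* counts in each library (vertical log axis) by genotype. Right, the normalized counts of both genes in the same 21 libraries, with a line of equal counts. Filled points are libraries with low *mt-Nd3* and open points those with high *mt-Nd3*. The ratio runs from 1.04 to 1.22 in the 9 libraries with a *Nipbl* deletion and from 0.899 to 1.02 in the 12 others. The double heterozygotes reach their ratio with *Stag2* counts near those of WT, and the *Nipbl*+/- libraries theirs with *Stag2* counts of 1871 to 1998.

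*Esco1* and *Esco2* encode the acetyltransferases of SMC3: ESCO1 acts through the whole cell cycle and ESCO2 during replication. *Esco1*, on chromosome 18, had normalized counts of 560, 522, 449, 423 and 455 in WT replicates 1 to 5, a wider spread than in any mutant group. Its means were 494 ± 25.0 (SD, n = 3) in *Nipbl*+/-, 483 ± 27.4 (n = 7) in *Wapl* Δ/+ and 505 ± 15.5 (n = 6) in double-heterozygote brains against 482 ± 57.2 (n = 5) in WT. The 2 WT libraries above 500 belong to the low *mt-Nd3* set, and within that set *Esco1* in *Nipbl*+/- brains stood at -0.05 on the log2 scale, against 0.03 (SE 0.0799) with all libraries. Its differences of 0.0071 (SE 0.0635) in *Wapl* Δ/+ brains and 0.08 (SE 0.0631) in double heterozygotes did not pass edgeR's test (adjusted P = 0.975 and 0.649), and the *Wapl* Δ/+ value was -0.14 within the low and 0.16 within the high *mt-Nd3* set.

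*Esco2* (14:65819027-65833969), whose protein builds cohesion as chromosomes replicate, was counted only 111 to 199 times per library, so counting error alone is near 8% of its level. Its normalized counts in WT replicates 1 to 5 were 151, 144, 128, 137 and 126, and those of the *Nipbl*+/- libraries were 186, 140 and 170. The *Wapl* Δ/+ libraries ran from 126 to 223 (median 152) and the double heterozygotes from 106 to 193 (median 152). In WT the spread of 7.65% was no wider than the counting error of 8.42%, while it was 20.3% in *Wapl* Δ/+ and 21.5% in double-heterozygote brains. The *Wapl* Δ/+ spread includes replicate 5 at 223, where the next library had 165 and the lowest 126. The means of all mutant groups were higher than in WT, with log2 fold changes of 0.26 (SE 0.109), 0.19 (SE 0.113) and 0.19 (SE 0.124) in *Nipbl*+/-, *Wapl* Δ/+ and double-heterozygote brains, but none passed the test (edgeR adjusted P = 0.171, 0.428 and 0.544) and every mutant group overlapped WT. Without *Nipbl*+/- replicate 2, its lowest library, the difference in *Nipbl*+/- brains was 0.37 and was called (edgeR adjusted P = 0.0379). Leaving out that library raised the calls over all genes from 3422 to 4788. The *Wapl* Δ/+ value was 0.31 within the high *mt-Nd3* set and -0.0063 within the low set. The ratio of *Esco1* to *Esco2* counts was 3.08 to 3.71 in WT and 2.62 to 3.37 in *Nipbl*+/- libraries (log2 difference -0.22, exact permutation P = 0.0536, adjusted P = 0.161), and was called only without WT replicate 4 (-0.27, adjusted P = 0.0857). In *Wapl* Δ/+ and double-heterozygote libraries it differed by -0.17 and -0.08 (exact permutation test, adjusted P = 0.299 and 0.666).

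*Hdac8* (X:102284638-102505381) encodes the deacetylase that resets SMC3. In WT replicates 1 to 5 its normalized counts were 332, 318, 327, 317 and 319. The *Nipbl*+/- libraries had 322, 329 and 341, the *Wapl* Δ/+ libraries ran from 277 to 349 (median 302) and the double heterozygotes from 319 to 377 (median 346). Thus 6 of 7 *Wapl* Δ/+ libraries lay below and 5 of 6 double heterozygotes above the WT mean. The log2 fold changes were 0.03 (SE 0.0653), -0.07 (SE 0.0592) and 0.12 (SE 0.0571) in *Nipbl*+/-, *Wapl* Δ/+ and double-heterozygote brains, and none passed the test (edgeR adjusted P = 0.873, 0.643 and 0.344). The *Wapl* Δ/+ value was 0.041 within the low and -0.10 within the high *mt-Nd3* set, and 0.051 for the deletion written delta/+ against all WT libraries.

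*Cdca5* (19:6085097-6091773) encodes sororin, which keeps WAPL away from acetylated cohesin in dividing cells. It had the lowest counts of the 10 genes, 93 to 152 per library. WT replicates 1 to 5 had normalized counts of 123, 119, 99.2, 102 and 128, and the *Nipbl*+/- libraries 140, 90.4 and 154. In *Wapl* Δ/+ brains they ran from 112 to 174 (median 120) and in double heterozygotes from 99.6 to 146 (median 129), so that all mutant groups overlapped WT. The log2 fold changes were 0.16 (SE 0.147) in *Nipbl*+/-, 0.23 (SE 0.112) in *Wapl* Δ/+ and 0.15 (SE 0.106) in double-heterozygote brains, and none was called (edgeR adjusted P = 0.641, 0.315 and 0.593). The *Nipbl*+/- libraries differed most among themselves, with a coefficient of variation of 26.0% against 8.90% from counting alone. Without replicate 2 the difference was 0.35 and was called (edgeR adjusted P = 0.0858), where 4788 of all genes were called, against 3422 with it. *Cdca5* and *Esco2* were thus the genes whose changes were measured least precisely.

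*Esco2* and *Cdca5* act in dividing cells, and several of the 10 genes followed a list of 15 proliferation genes (among them *Mki67*, *Top2a*, *Cdk1* and *Pcna*) from library to library. The correlation with the mean log2 CPM of that list over the 21 libraries was r = 0.863 for *Cdca5* (Spearman rho 0.886), 0.80 for *Esco2* (rho 0.768), 0.702 for *Smc1a* (rho 0.661), 0.676 for *Rad21* (rho 0.754), 0.587 for *Ctcf* (rho 0.708) and 0.505 for *Smc3* (rho 0.482). These 6 of the 10 genes passed a two-sided permutation test with 100000 resamples after adjustment over the 10 genes. By that test adjusted P was between 1e-04 and 0.0324 for r and between 1e-04 and 0.0471 for rho. The unadjusted P of *Cdca5*, 1e-05, is the smallest that 100000 resamples can give. Only the 10 genes were tested against the list, so the share of all genes that would pass is not known. *Stag1* (r = -0.142, rho = -0.0221), *Stag2* (-0.106, 0.0831), *Esco1* (0.129, 0.213) and *Hdac8* (0.0397, 0.142) did not pass that permutation test. Since the 21 libraries come from 4 genotypes and both *mt-Nd3* sets, r was also computed over deviations from the group means, where it was 0.855 for *Cdca5*, 0.774 for *Esco2*, 0.785 for *Smc1a*, 0.754 for *Rad21*, 0.77 for *Ctcf* and 0.494 for *Smc3*. Without the 2 libraries farthest from the median of the list, r was 0.861, 0.846, 0.653, 0.562, 0.545 and 0.627 for the same genes. *Cdca5* and *Esco2* had r of 0.92 and 0.776 in the 12 libraries with low *mt-Nd3* and of 0.88 and 0.89 in the 9 with high *mt-Nd3*. By r, *Smc3* did not pass the permutation test in the low set (0.321), nor did *Rad21* and *Ctcf* in the high set (0.522 and 0.558). *Stag2* had r of -0.347 in the low and 0.647 in the high set, and passed in neither.

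**Figure D4:**
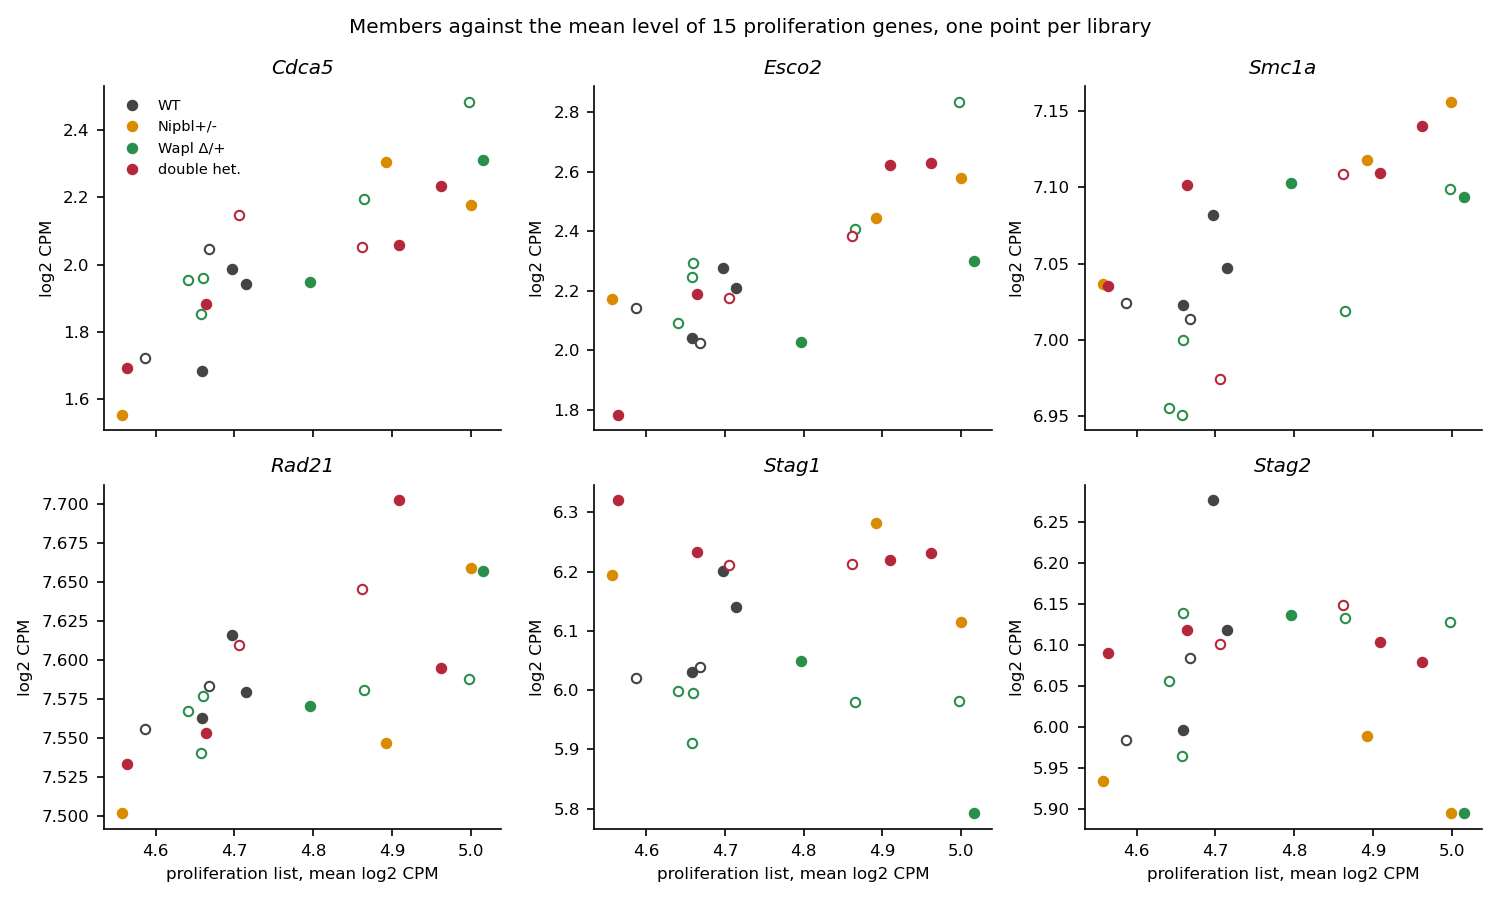
Log2 CPM of 6 of the genes (vertical axes) against the mean log2 CPM of 15 proliferation genes (horizontal axis), with 1 point per library, coloured by genotype. Filled points are libraries with low *mt-Nd3* and open points those with high *mt-Nd3*. Over all libraries *Cdca5* (r = 0.863), *Esco2* (0.80), *Smc1a* (0.702) and *Rad21* (0.676) rise with the list, and *Stag1* (-0.142) and *Stag2* (-0.106) do not. Among the open points alone r for *Stag2* is 0.647.

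The proliferation genes themselves stood on the same side in the mutants. All 15 had positive log2 fold changes in each mutant group, with medians of 0.13 in *Nipbl*+/-, 0.13 in *Wapl* Δ/+ and 0.11 in double-heterozygote brains, and 3, 2 and 1 of the 15 were called. Of all genes tested, edgeR called 11.2%, 2.22% and 3.28% in these groups, and these shares also apply to the lists that follow. All 15 genes were compared with the same 5 WT libraries, so their signs are not independent results. Their summed level ran from 448 to 494 CPM in WT, 426 to 579 in *Nipbl*+/-, 456 to 585 in *Wapl* Δ/+ and 445 to 571 in double-heterozygote libraries. Each range of the mutants reaches above that of WT, and the lowest *Nipbl*+/- library for this list is replicate 2, which is also the lowest of its group for *Esco2* and *Cdca5*. The part of dividing cells in the *Esco2* and *Cdca5* values was not tested. Of 8 glial markers, 6 were called lower in *Nipbl*+/- brains and 7 in double heterozygotes. By edgeR 0 were called in *Wapl* Δ/+ brains, with 5 of 8 at an unadjusted P below 0.05 and a median of -0.13. The list had summed levels of 553 to 594 CPM in WT, 396 to 499 in *Nipbl*+/-, 450 to 607 in *Wapl* Δ/+ and 412 to 515 in double-heterozygote libraries. Of 6 microglial markers, 4 were called lower in *Nipbl*+/- and 1 in double-heterozygote brains, with summed levels of 71.8 to 85.5 CPM in WT, 57.6 to 68.3 in *Nipbl*+/-, 70.7 to 95.5 in *Wapl* Δ/+ and 63.4 to 76.2 in double-heterozygote libraries. No glial or microglial marker was at 0 in any library, and the part of these cells in the *Stag1* and *Stag2* values was not tested. Of the other lists, 3 of 8 neural progenitor genes were called higher and 1 lower in *Nipbl*+/- brains, 3 of 8 neuronal genes were called lower there and 1 in double heterozygotes, and *Col1a1* and *Col1a2* of 6 meningeal and vessel genes were called higher in *Wapl* Δ/+ brains. Of 5 choroid plexus genes, *Otx2* was called higher in *Nipbl*+/- and double-heterozygote brains. In each of these groups only 2 of the 5 had positive log2 fold changes, and the list medians were -0.17 and -0.057. *Gh* of 5 pituitary genes (0 to 2056 counts per library) was called lower in *Wapl* Δ/+ brains. The summed pituitary level had a median of 1.14 CPM and a maximum of 87.3 in WT and a median of 1.23 CPM in *Wapl* Δ/+ libraries. Against WT, 0 of 6 blood genes was called.

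Direct tests between mutant groups asked what a deletion adds to the other. Of the 10 genes, 0 were called between double heterozygotes and *Nipbl*+/- brains, 1 between double heterozygotes and *Wapl* Δ/+ brains and 1 between *Nipbl*+/- and *Wapl* Δ/+ brains, where edgeR called 0.00655%, 1.02% and 1.16% of all genes tested. The gene called was *Stag1* both times. It was higher in double heterozygotes than in *Wapl* Δ/+ brains by 0.28 on the log2 scale (SE 0.0406, 95% confidence interval 0.20 to 0.37, edgeR adjusted P = 9.74e-04), an increase of 21.8% without overlap, and it remained called when any of the 13 libraries was left out (0.26 to 0.30). Within the low and high *mt-Nd3* sets that difference was 0.33 and 0.24, and with the smaller groups it was not called (adjusted P = 0.22 and 0.213). In *Nipbl*+/- brains *Stag1* was higher than in *Wapl* Δ/+ brains by 0.24 (SE 0.0527, edgeR adjusted P = 0.0501), without overlap. That call was lost without *Nipbl*+/- replicate 3 (0.20, adjusted P = 0.355) and within the low *mt-Nd3* set (0.27, adjusted P = 0.857).

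*Stag2* did not follow *Stag1* in these tests. It was higher in double heterozygotes than in *Nipbl*+/- brains by 0.17 on the log2 scale (SE 0.0447, 95% confidence interval 0.08 to 0.27), without overlap of the groups, but with 2 genes called in all it did not pass the adjusted threshold (edgeR adjusted P = 0.971). It was the only one of the 10 genes with an unadjusted edgeR P below 0.05 in that comparison, where 4.12% of all genes were below it, and DESeq2 called 0 of the 10 genes and 0.0164% of all genes. Between *Nipbl*+/- and *Wapl* Δ/+ brains it stood at -0.13 (adjusted P = 0.433) and between double heterozygotes and *Wapl* Δ/+ brains at 0.05 (adjusted P = 0.79). The other 8 genes lay between -0.08 and 0.08 in double heterozygotes against *Nipbl*+/- brains, between -0.09 and 0.19 against *Wapl* Δ/+ brains, and between -0.07 and 0.11 for *Nipbl*+/- against *Wapl* Δ/+ brains. The value of 0.19 is that of *Hdac8* (SE 0.0613, edgeR adjusted P = 0.234, 6 of 6 double heterozygotes above the *Wapl* Δ/+ mean).

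The interaction of both deletions, fitted with edgeR on all 21 libraries, asks whether a double heterozygote departs from the sum of the single effects on the log scale. It was called for 0 of the 10 genes and for 0% of all genes. *Stag1* and *Stag2* alone of the 10 had an unadjusted edgeR P below 0.05, as had 13.8% of all genes, and DESeq2 called 0 of the 10 and 2.6% of all genes. The interaction was 0.14 (SE 0.0621, adjusted P = 0.30) for *Stag1* and 0.17 (SE 0.0696, edgeR adjusted P = 0.268) for *Stag2*. Both genes thus stood above the sum of the single effects in the double heterozygotes, but neither departure passed the threshold.

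Other genes of the cohesin pathway and of its relatives were looked at as lists, apart from *Nipbl* and *Wapl*, which carry the deletions. Of all genes tested against WT, edgeR called 11.2% in *Nipbl*+/-, 2.22% in *Wapl* Δ/+ and 3.28% in double-heterozygote brains. Of the other loader and release genes, *Pds5b*, whose product binds RAD21 beside WAPL, was lower in *Nipbl*+/- brains (-0.35 on the log2 scale, SE 0.059, edgeR adjusted P = 0.00112), and *Mau2*, *Pds5a* and *Pds5b* were otherwise not called against WT. Among the 8 genes of cohesin cleavage and protection, *Espl1* (0.27) and *Plk1* (0.28) were called higher in *Nipbl*+/- brains, and none was called in the other comparisons with WT. Among the 8 condensin genes, *Ncapd2* was called higher (0.22) and *Ncapg2* lower (-0.23) in *Nipbl*+/- brains and none was called in the others, and none of the 7 genes of the SMC5/6 list was called against WT. The germline counterparts of the ring genes were present in few counts for *Smc1b* (5 to 19 per library) and *Rad21l* (5 to 31), with 322 to 668 for *Rec8*, 434 to 774 for *Stag3* and 0 or 1 for *Ctcfl*, which was not tested, and 0 of the 4 tested were called.

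What the 10 genes share with other genes was described by correlation of log2 CPM over the 21 libraries, with 17302 genes of at least 1 CPM ranked for each. These libraries share genotypes and preparation, and the values are descriptions. Among the 10 genes themselves the closest pairs were *Smc1a* with *Ctcf* (r = 0.801) and *Esco2* with *Cdca5* (0.728), and *Stag1* with *Stag2* reached 0.317. The closest partner of each gene within the group ranked between 18 and 947 among all genes. *Cdca5* was closest to *Ttk* (0.937), *Top2a* and *Cdca2*, which serve mitosis. *Stag1* was closest to *Xist* (0.90), *Cep162* and *Senp7*. *Stag2* was closest to *Thoc2* (0.921), *Zfp711* (0.904) and *Cdc73*, the first 2 of which are also on the X chromosome. The genes closest to the ring subunits were *Map4k4* for *Smc1a* (0.911), *Ddx5* for *Smc3* (0.916) and *Hnrnpk* for *Rad21* (0.878). *Esco2* was closest to *Brwd1* (0.857), *Ctcf* to *Stra6l* (0.869), *Esco1* to *Tasor2* (0.783) and *Hdac8* to *Gm28437* (0.793).

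3 genes of the group, *Smc1a*, *Stag2* and *Hdac8*, lie on the X chromosome. In *Nipbl*+/- brains *Stag2* was called lower, and *Smc1a* and *Hdac8* had log2 fold changes of 0.06 and 0.03. Of 521 X-linked genes whose mean was 1 CPM or more, 88 were called lower and 21 higher in *Nipbl*+/- brains. The share lower was 16.9% on the X chromosome and 11.6% over all 17303 genes with that mean. *Thoc2*, at X:41794992-41911937, was lower by -0.23 on the log2 scale in the same brains (edgeR adjusted P = 0.0118) and stood at -0.0031 in double heterozygotes. *Rad21* lies on the chromosome of *Nipbl* and *Esco2* on that of *Wapl*, and neither gene was called in any comparison. Of the genes that overlap the 10, *Ribc1*, which overlaps *Smc1a*, had 15 to 39 counts per library, *Gm5914*, which overlaps *Ctcf*, had 84 to 154, and the pseudogenes that overlap *Stag1* had at most 3. *Gm52217* (*Rad21*), *Gm32262* (*Hdac8*) and *Gm33578* (*Ctcf*) have no row of their own in the counts used here, and the part of shared reads in the values was not tested.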

How the data were processed

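Whole-brain poly(A) RNA of 21 embryos was compared between 4 genotypes, grouped by the labels. The deposited values are raw counts of reads per gene, made by the authors with cutadapt 2.4, STAR 2.5.3a and featureCounts (Subread 1.6.4) on mm10 (GRCm38.p6). The strand setting of the counting is not given in the sources used here.

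Genes whose normalized counts over the 21 libraries added up to 10 or more were tested with edgeR 4.0.16 (R 4.3.3, limma 3.58.1) by TMM scaling and the quasi-likelihood test, pairwise over the libraries compared and for the interaction over all 21. P was adjusted by Benjamini-Hochberg over all genes tested, and genes below 0.10 were called. Normalized counts are counts scaled to the mean effective library size. Log2 CPM used a prior count of 2. Ratios took the count plus 0.5 of each gene in a library and were compared by two-sided exact permutation tests. Confidence intervals are 95%. Libraries were split by *mt-Nd3* at 20 counts. The labels do not say which embryos were littermates, so P measures the spread between these libraries.

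The 10 genes, the marker and pathway lists and the tests were chosen with earlier results of these data known. Named genes were all 10, *Nipbl* and *Wapl*, at most the 2 largest called changes in each direction of a list, and the 3 genes closest to each of the 10 by r among those averaging 1 CPM or more. Genes given only by their counts, position or as examples of a list fall outside this rule and were chosen with values seen. The tests of the *Stag1* to *Stag2* ratio between mutant groups and within the high *mt-Nd3* set were also added after seeing the data. Alternatives were DESeq2 1.42.0, other normalizations and count filters, adjusted P below 0.05, a replicate block, an *mt-Nd3* term, subsets of libraries and each library left out. The counting error of a library is near the inverse square root of the count. The scripts were tested on simulated data. Positions are those of RefSeq on GRCm38.p6. Sequences and gene lengths were not used here, so no motif was searched and levels were not compared between genes.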

Additional observations from a re-analysis of the deposited data

Results flagged for a closer look

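In 3 of the 42 groups of values examined for the 10 genes and 4 ratios, the gap of an extreme library to its nearest neighbour, as a share of the group's range, exceeded Dixon's 95% critical value. Chance flags about 1 in 20 such groups. *Rad21* in *Wapl* Δ/+ replicate 1 had a normalized count of 6349, where the next library had 6053 and the lowest 5857. *Esco2* in *Wapl* Δ/+ replicate 5 had 223, with 165 in the next and 126 in the lowest library. *Stag1* in double-heterozygote replicate 3 had 2513, with 2365 in the next and 2329 in the lowest library.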

How the results depend on the processing

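The number of the 10 genes called was recounted under each alternative. The number called among all genes also changed and is given beside it. In *Nipbl*+/- brains against WT the number of the 10 called fell from 1 to 0 at adjusted P below 0.05 and in a single fit of all 4 groups, and ran from 0 to 2 when 1 library was left out (without WT replicate 1 the gene called was *Stag1* in place of *Stag2*). All genes called were 3422 in the main fit, 2405 and 1658 in those 2 settings, and 1828 to 4788 with a library left out. In *Wapl* Δ/+ brains the number of the 10 called rose from 0 to 1 with DESeq2 and ran from 0 to 1 with a library left out. All genes called were 677 in the main fit, 1446 with DESeq2 and 9 to 1534 with a library left out. In double heterozygotes the number of the 10 called fell from 1 to 0 in the low *mt-Nd3*, high *mt-Nd3* and second-written *Wapl* deletion libraries, rose to 2 with those whose label writes the deletion first, and ran from 0 to 2 with a library left out. All genes called were 1001 in the main fit, 672 in the low and 1 in the high *mt-Nd3* set. With the deletion written second and first they were 869 and 1814, and with a library left out 454 to 2504. Between double heterozygotes and *Wapl* Δ/+ brains the number of the 10 called fell to 0 in both *mt-Nd3* sets, which for this comparison are the same libraries as the deletion-first and deletion-second subsets (0 and 0) and hold fewer libraries, and between *Nipbl*+/- and *Wapl* Δ/+ brains to 0 at adjusted P below 0.05, with an *mt-Nd3* term and in the low *mt-Nd3* libraries (0 to 1 with a library left out). Of all genes, 311 were called between double heterozygotes and *Wapl* Δ/+ brains in the main fit, and 24 and 29 in the low and high sets. Between *Nipbl*+/- and *Wapl* Δ/+ brains 354 were called in the main fit, and 196, 33 and 8 in the settings named, in that order. The number of subunit ratios past the threshold was 0 in the low and, chosen after seeing the data, the high *mt-Nd3* libraries, and 1 to 4 with a library left out, against 3. The cause of the other changes was not tested.

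Samples of a group share replicate numbers with other groups, and the labels do not say whether the numbers pair embryos. The deviations of 25 same-number pairs had r between -0.239 and 0.401 (median 0.0231, 8 over 0.1), and those with different numbers a median of 0.0143. Medians this close do not settle whether some of the numbers pair embryos. With the number as a replicate block, 0 of the 10 genes were called in *Nipbl*+/- and 1 (*Cdca5*, 0.31, edgeR adjusted P = 0.0805) in *Wapl* Δ/+ brains, 0 in double heterozygotes and 0 between *Nipbl*+/- and *Wapl* Δ/+ brains. Of all genes, 1893, 1991, 535 and 233 were called with the block in that order, against 3422, 677, 1001 and 354 without it. Under the block *Stag2* stood at -0.20 (edgeR adjusted P = 0.111) in *Nipbl*+/- brains and *Stag1* at 0.17 (adjusted P = 0.112) in double heterozygotes.

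Signs turned where values lay near 0 or few libraries remained. In *Nipbl*+/- brains *Esco1* was -0.051 with the block, -0.055 with the *mt-Nd3* term and -0.054 in the low set, and *Rad21* was 0.015 in the single fit. In *Wapl* Δ/+ brains *Smc1a* was 0.021 with the block, 0.017 with the *mt-Nd3* term, 0.051 in the low set, 0.011 in the single fit and 0.060 with the deletion written first. *Esco1* was -0.14 (low set) and -0.058 (first), *Hdac8* 0.041 (low) and 0.051 (first), *Ctcf* 0.0015 (low) and 0.025 (first), *Esco2* -0.0063 (low), *Stag2* 0.051 (high) and *Rad21* -0.0054 (second). In double heterozygotes *Stag2* was -0.028 (low). The log2 ratio of *Smc1a* to *Smc3* was 0.040 by medians and 0.011 in the low set in *Nipbl*+/- brains and 0.0022 and 0.042 in *Wapl* Δ/+ brains, where that of *Rad21* to *Smc3* was 0.022 in the low set. The r with the proliferation list was 0.0784 for *Stag1*, 0.305 for *Stag2* and -0.0408 for *Hdac8* without the 2 farthest libraries, -0.106 for *Esco1* and -0.042 for *Hdac8* in the low set, and 0.125 for *Stag1*, 0.647 for *Stag2* and -0.135 for *Hdac8* in the high set. With a library left out, *Rad21* ran from -0.059 to 0.016 and *Esco1* from -0.015 to 0.097 in *Nipbl*+/- brains. In *Wapl* Δ/+ brains *Smc1a* ran from -0.016 to 0.010, *Rad21* from -0.0058 to 0.013, *Stag2* from -0.050 to 0.020 and *Esco1* from -0.035 to 0.064. *Stag2* ran from -0.0034 to 0.067 in double heterozygotes, and the log2 ratio of *Smc1a* to *Smc3* from -0.035 to 0.030 in *Nipbl*+/- brains. Of the other fold changes, 373 kept their direction and their side of the threshold with all libraries or subsets and 383 with a library left out. Counts of *Esco2* and *Cdca5* limit what could be seen for these genes.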
